A study of Saccharomyces cerevisiae with 12 samples.

Results

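The genes described here encode the DNA replication machinery of budding yeast, *Saccharomyces cerevisiae*, and its ribonucleotide reductase. They were chosen as 48 named genes, by complex: the origin recognition complex with the loader Cdc6, the MCM helicase, the factors that assemble and fire the CMG helicase, the replicative polymerases with primase, the PCNA clamp and its loader, the single-strand binding protein RPA with lagging strand enzymes, and the 4 ribonucleotide reductase genes. Each of the 48 was measured by 1 probe set, out of 5716 probe sets paired with a yeast gene. Total RNA was hybridised to 12 Affymetrix GeneChip Yeast Genome 2.0 arrays, 3 biological replicates in each of 4 groups. EG103 is a wild-type haploid of mating type *MATα*, *GAL+*, with the markers *ura3-52*, *trp1-289a*, *his3Δ1* and *leu2-3 112*. EG110 is EG103 with *sod2Δ::TRP1*, and so lacks mitochondrial manganese superoxide dismutase (MnSOD) and carries *TRP1*, which EG103 does not. Each strain was grown for 48 h in ethanol medium (YPE) at 28 °C and 250 rpm, without aspirin or with 15 mM aspirin. Medium with aspirin was brought to pH 5.5 with Trizma base before inoculation, so aspirin and that adjustment cannot be told apart.

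Replication begins when the origin recognition complex marks origins and, with Cdc6, loads the MCM ring in G1. At the onset of S phase the kinase Cdc7-Dbf4 and a set of firing factors join Cdc45 and GINS to MCM to form the CMG helicase, behind which the polymerases, PCNA and RPA copy both strands. Ribonucleotide reductase makes the deoxynucleotides. Many of these genes are transcribed periodically, those of the MCM ring and *CDC6* around the M/G1 boundary and *POL1*, *POL30*, *RAD27* and *RNR1* in late G1 under the factor MBF, while *RNR2*, *RNR3* and *RNR4* are known for their induction by DNA damage.

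The arrays matched their strain labels: *SOD2* read from 4.50 to 4.99 on the log2 scale on the 6 EG110 arrays and from 14.19 to 14.40 on the 6 EG103 arrays. The deposited log2 values of all 5716 probe sets lay lower in EG110, with array medians of 11.15 to 11.18 against 11.36 to 11.39 in EG103, and the probe sets with no yeast gene were lower as well (medians of 4.00 to 4.02 against 4.16 to 4.19). Comparisons within a strain are free of that shift, and those between the strains are given against it. The probe sets for 4 markers of haploid α cells and for 5 of a cells all read above the level of those with no yeast gene. They moved between the groups too. *MF(ALPHA)2* rose with aspirin in both strains (0.77 in EG110 and 0.89 in EG103), *SAG1* in EG103 (0.94), and the a cell gene *MFA2* fell in EG110 (-0.89). Neither list moved as 1 block in EG110. There 1 α cell marker had a negative change (-0.20, not past the adjusted *P*) and 1 a cell marker was higher by adjusted *P* alone (0.25). Without aspirin *MF(ALPHA)1*, *MF(ALPHA)2* and *STE3* were higher in EG110 (0.96, 1.16 and 1.14), under all 3 scales. All 5 a cell markers were lower there as deposited, 4 of them by adjusted *P*, where 51.8% of all probe sets were lower. None of the 5 passed the fold threshold. The part of these markers in the changes of the replication genes was not tested.

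With aspirin, part of the replication machinery rose in EG110. Of the 48 genes 10 rose and 2 fell there, a change called when the Benjamini-Hochberg adjusted *P* of limma was below 0.05 and the fold change at least 1.5. The 10 that rose are 20.8% of the members, against 5.90% of all 5716 probe sets called higher, and the 2 that fell are 4.17%, against 6.09% called lower. The genes that rose were *RNR1*, *POL1*, *CDC6*, *POL30*, *MCM6*, *DPB2*, *RAD27*, *CDC45*, *POL12* and *POL3*, with log2 fold changes from 0.60 to 1.68. *RNR2* and *RNR4* fell. A further 21 members passed the adjusted *P* with a smaller increase (log2 0.17 to 0.54), which brings those higher by adjusted *P* alone to 31, or 64.6% of members against 27.2% of all probe sets, while 3 were lower (6.25%, against 25.1%). The median log2 fold change was 0.29 over the members and 0.02 over all probe sets, and 40 of the 48 were positive. All 3 aspirin arrays lay above all 3 untreated ones in 32 members (66.7%, against 32.2% of all probe sets) and below them in 2 (4.17%, against 29.8%), so that the groups did not overlap in 34 (70.8%, against 62.0%).

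In EG103 none of the 48 genes passed both thresholds, where 2.61% of all probe sets did (1.75% higher and 0.857% lower). By adjusted *P* alone *ORC2*, *ORC5*, *CDC6*, *DPB11* and *DPB2* were higher and *SLD3* lower (2.08%, against 8.59% of all probe sets lower), together 12.5% of members against 20.6% of all probe sets. The aspirin and untreated arrays did not overlap in 14 members (29.2%, against 39.0%). At an unadjusted *P* below 0.05 limma gave 12 of the 48, where 35.6% of all probe sets passed, and the methods' t-test with the fold threshold gave 0. The median log2 fold change of the members was 0.02, against 0.01 over all probe sets. When the aspirin effects of the strains were compared directly, 11 members had a more positive effect in EG110 at both thresholds (22.9%, against 5.21% of all probe sets). None had a more negative one (6.37% of all), except that *RNR2* passed in that direction in 7 of its 20 alternatives. By adjusted *P* alone 29 effects differed (33.1% of all probe sets), 24 of them more positive in EG110 (16.2%) and 5 more negative (17.0%). Among these 5, *RNR2* and *RNR4* fell in EG110 and did not pass the adjusted *P* in EG103. RNA was taken from whole cultures, in which a larger share of cells in S phase and more transcript per cell cannot be told apart.

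**Figure D1:**
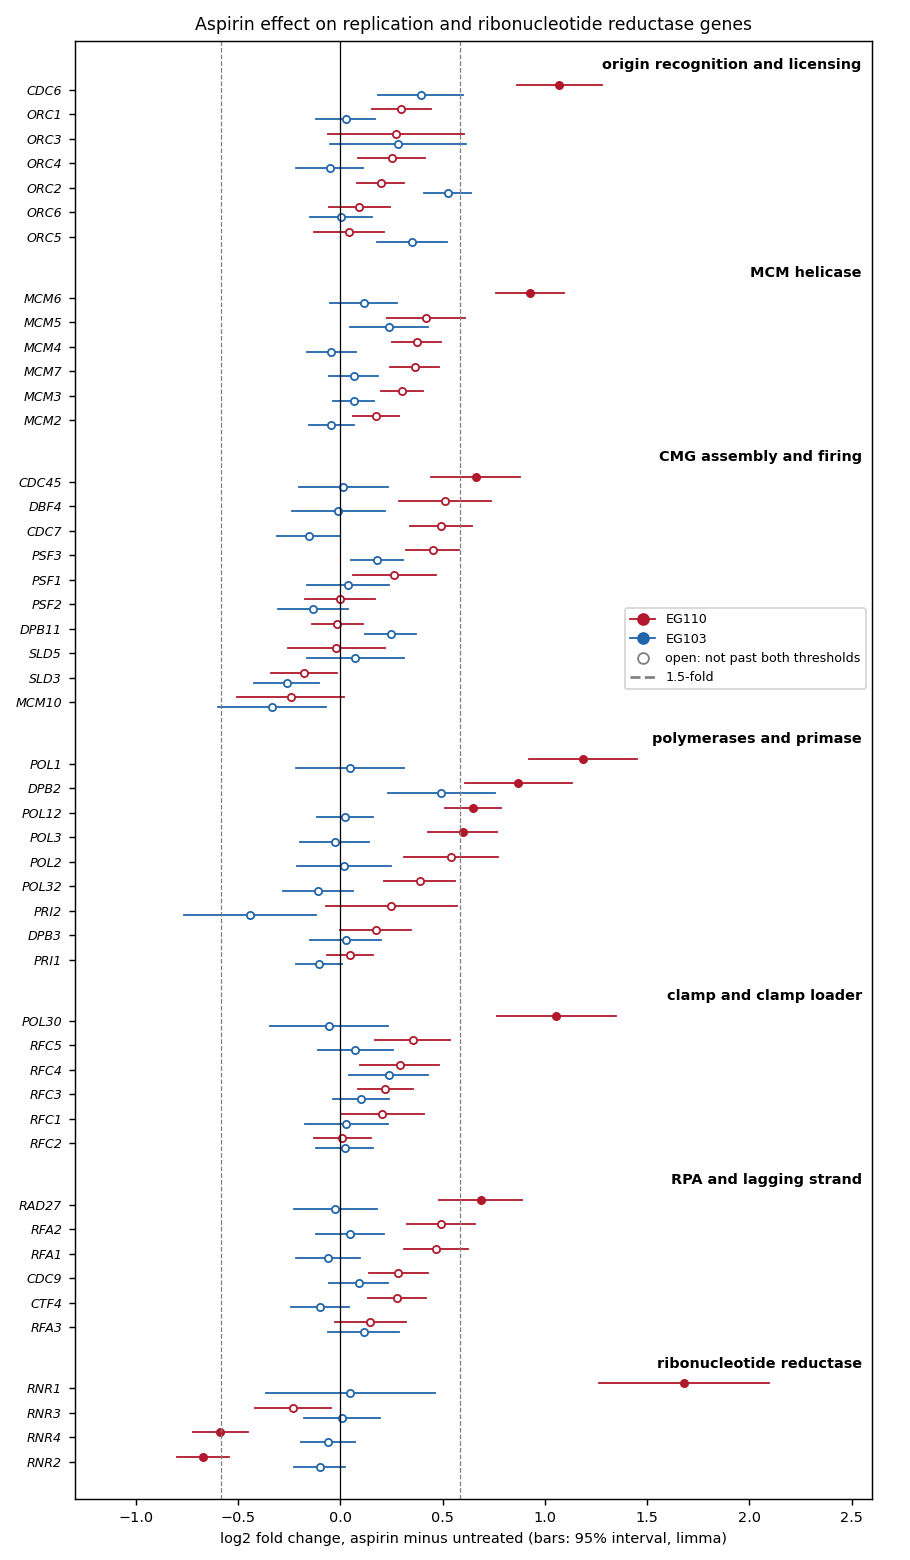
Log2 fold change of the 48 genes with aspirin (x axis, aspirin minus untreated) in EG110 (red) and EG103 (blue), by complex, with 95% intervals from limma and 3 arrays per group. Filled points passed both thresholds and dashed lines mark 1.5-fold. Filled points are red in all cases, 10 to the right of 0 and 2 to the left, and *RNR1* lies farthest right at 1.68.

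Among the origin and licensing genes, *CDC6* rose and the 6 subunits of the origin recognition complex did not reach the fold threshold. *CDC6* (YJL194W), whose product loads the MCM ring at origins, read 10.17, 10.06 and 10.24 in aspirin-treated EG110 and 9.20, 9.16 and 8.91 in untreated EG110, against 9.83, 9.57 and 9.52 in aspirin-treated EG103 and 9.24, 9.33 and 9.18 in untreated EG103. Aspirin arrays lay above untreated arrays in each strain, and the aspirin arrays of EG110 lay above all others. The log2 fold change was 1.07 (SE 0.095, adjusted *P* = 3.34e-06) in EG110 and 0.39 (adjusted *P* = 0.0151) in EG103, and the difference between them, 0.68, passed both thresholds (adjusted *P* = 0.0026) but measured 0.52 without replicate 3 of each group. *ORC1* to *ORC6* lay between 0.04 and 0.30 in EG110, with *ORC1*, *ORC2* and *ORC4* past the adjusted *P*.

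The origin recognition subunits did not move as 1 block. *ORC5* (YNL261W), an ATP-binding subunit of the complex, read 10.86, 10.87 and 10.91 in aspirin-treated EG110, 10.84, 11.00 and 10.67 in untreated EG110, 10.28, 10.22 and 10.12 in aspirin-treated EG103 and 9.95, 9.86 and 9.76 in untreated EG103. All 6 EG110 arrays exceeded all 6 EG103 arrays, and aspirin separated the groups only in EG103. Its log2 fold change was 0.04 in EG110 (adjusted *P* = 0.691) and 0.35 in EG103 (adjusted *P* = 0.0105). *ORC2*, singled out after its values were seen, had the largest increase of all 48 genes in EG103, at 0.52 (adjusted *P* = 9.59e-05), under the fold threshold, and its effect was smaller in EG110 by adjusted *P* alone (difference -0.33, adjusted *P* = 0.00581).

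All 6 MCM genes were higher with aspirin in EG110 by adjusted *P* (0.0133 or less), with no overlap between aspirin and untreated arrays in any of them, but only *MCM6* passed the fold threshold. Of all probe sets 27.2% were higher in EG110 by adjusted *P*, and 32.2% lay higher without overlap. *MCM6* (YGL201C) read 10.59, 10.61 and 10.66 in aspirin-treated EG110, 9.78, 9.78 and 9.52 in untreated EG110, 10.66, 10.59 and 10.48 in aspirin-treated EG103 and 10.42, 10.55 and 10.42 in untreated EG103. The untreated EG110 arrays lay below all others, and the aspirin-treated ones lay within the range of aspirin-treated EG103. The log2 fold change was 0.93 in EG110 (SE 0.076, adjusted *P* = 1.82e-06) and 0.11 in EG103 (adjusted *P* = 0.313), and the difference of 0.81 passed both thresholds (adjusted *P* = 1.64e-04).

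The other 5 subunits of the ring changed less than *MCM6*, by 0.17 to 0.42. *MCM2* (YBL023C), with the smallest effect, read 11.68, 11.59 and 11.61 in aspirin-treated EG110, 11.48, 11.39 and 11.49 in untreated EG110, 11.18, 11.08 and 11.15 in aspirin-treated EG103 and 11.12, 11.21 and 11.21 in untreated EG103. It was the only MCM gene that read higher in EG110 than in EG103 on every array. *MCM5* (YLR274W) read 10.03, 9.98 and 10.01 in aspirin-treated EG110, 9.64, 9.78 and 9.34 in untreated EG110, 10.78, 10.70 and 10.78 in aspirin-treated EG103 and 10.51, 10.50 and 10.54 in untreated EG103. Aspirin arrays lay above untreated ones in both strains, by 0.42 in EG110 (adjusted *P* = 0.00176) and 0.24 in EG103 (adjusted *P* = 0.0764). *MCM4* (YPR019W) read 11.55, 11.50 and 11.55 with aspirin and 11.19, 11.14 and 11.16 without it in EG110, and 11.96, 11.88 and 11.77 with aspirin and 11.88, 11.99 and 11.88 without it in EG103. Its groups separated in EG110, by 0.37, and overlapped in EG103. In EG103 no MCM gene passed the adjusted *P* (medians of 0.37 in EG110 and 0.06 in EG103).

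The factors that turn the MCM ring into the CMG helicase were split in EG110. There 5 of 10 genes were higher by adjusted *P*, against 27.2% of all probe sets, and 5 had log2 fold changes below 0. *CDC45* was the only one to rise. *CDC45* (YLR103C), the CMG subunit recruited as origins fire, read 10.31, 10.37 and 10.40 in aspirin-treated EG110, 9.86, 9.68 and 9.56 in untreated EG110, 9.92, 9.84 and 9.97 in aspirin-treated EG103 and 9.80, 9.75 and 10.15 in untreated EG103. The aspirin-treated EG110 arrays lay above all others, while the 3 other groups overlapped in part. Its log2 fold change in EG110 was 0.66 (SE 0.10, adjusted *P* = 1.92e-04), and 0.57, under the fold threshold, without replicate 3. In EG103 it was 0.01 (adjusted *P* = 0.947), and the difference of 0.65 (adjusted *P* = 0.00464) became 0.46, 0.58 or 0.52 without replicate 3, without replicate 3 of untreated EG110 or without replicate 3 of untreated EG103.

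Both subunits of the firing kinase were higher in EG110 below the fold threshold. *DBF4* (YDR052C), the regulatory subunit, read from 8.99 to 9.08 in aspirin-treated EG110, 8.63, 8.70 and 8.20 in untreated EG110, 9.60, 9.54 and 9.56 in aspirin-treated EG103 and 9.58, 9.50 and 9.65 in untreated EG103. Every EG103 array exceeded every EG110 array, and aspirin separated the groups only in EG110 (0.51, adjusted *P* = 0.00147). Over its alternatives it ranged from 0.33 without replicate 3 of both groups to 0.62 without replicate 2 of both, which passed both thresholds, as did 0.61 without replicate 2 of untreated EG110 alone, and its adjusted *P* reached 0.0679 by the methods' t-test. *CDC7*, the catalytic subunit, changed by 0.49 in EG110 and -0.16 in EG103, and its difference of 0.65 (adjusted *P* = 4.66e-04) passed both thresholds but measured 0.54 without replicate 2 of each group and 0.56 without replicate 2 of untreated EG110.

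The GINS subunits, the other partners in the CMG helicase, did not move alike. *PSF3* (YOL146W) read 11.12, 11.25 and 11.15 in aspirin-treated EG110, 10.74, 10.70 and 10.72 in untreated EG110, 11.63, 11.58 and 11.66 in aspirin-treated EG103 and 11.33, 11.46 and 11.54 in untreated EG103. Aspirin arrays lay above untreated ones in each strain, by 0.45 in EG110 (adjusted *P* = 6.71e-05) and 0.18 in EG103 (adjusted *P* = 0.0521). *PSF2* (YJL072C) read 9.65, 9.69 and 9.71 with aspirin and 9.74, 9.75 and 9.55 without it in EG110, and 10.22, 10.12 and 10.33 with aspirin and 10.21, 10.44 and 10.43 without it in EG103. Its aspirin and untreated arrays overlapped in both strains. *PSF1* changed by 0.26 (adjusted *P* = 0.0316) and *SLD5* by -0.02 (adjusted *P* = 0.891) in EG110.

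The lowest aspirin effect in this group belonged to *MCM10* (YIL150C), a factor that activates the assembled helicase. It read 8.44, 8.25 and 8.54 in aspirin-treated EG110, 8.50, 8.53 and 8.93 in untreated EG110, 8.33, 8.24 and 8.52 in aspirin-treated EG103 and 8.67, 8.60 and 8.83 in untreated EG103. The groups overlapped by a small margin in EG110 and separated in EG103, where all aspirin arrays were lower. Neither change passed the adjusted *P* (-0.24, adjusted *P* = 0.109 in EG110 and -0.34, adjusted *P* = 0.0686 in EG103). *SLD3*, another firing factor, was lower in EG103 by adjusted *P* alone (-0.26, adjusted *P* = 0.027).

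The polymerases and primase held 4 of the 10 genes that rose in EG110, and all 9 members were positive (median 0.54). *POL1* (YNL102W), the catalytic subunit of polymerase α that starts each new strand with primase, read 11.72, 12.03 and 11.82 in aspirin-treated EG110, 10.68, 10.38 and 10.95 in untreated EG110, 11.51, 11.53 and 11.35 in aspirin-treated EG103 and 11.42, 11.46 and 11.38 in untreated EG103. Untreated EG110 lay below every EG103 array and aspirin-treated EG110 above every one. It rose 2.28-fold in EG110 (log2 1.19, SE 0.12, adjusted *P* = 9.96e-06) against 0.05 on the log2 scale in EG103 (adjusted *P* = 0.828), a difference of 1.14 (adjusted *P* = 4.18e-04).

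*DPB2* (YPR175W), the second subunit of the leading strand polymerase ε, read 10.02, 10.11 and 10.15 in aspirin-treated EG110, 9.38, 9.11 and 9.19 in untreated EG110, 10.60, 10.72 and 10.94 in aspirin-treated EG103 and 10.24, 10.02 and 10.51 in untreated EG103. It was higher with aspirin on every array of each strain, and untreated EG110 lay below all other groups. The log2 fold change was 0.87 in EG110 (SE 0.12, adjusted *P* = 9.07e-05) and 0.49 in EG103 (adjusted *P* = 0.0149), and the difference of 0.38 did not pass (adjusted *P* = 0.108). Without replicate 3 of untreated EG103 the EG103 effect was 0.62 and passed both thresholds (adjusted *P* = 0.0055, and between 0.0055 and 0.163 over its alternatives).

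Primase showed less change in EG110. *PRI1* (YIR008C), its catalytic subunit, read 10.46, 10.52 and 10.42 in aspirin-treated EG110, 10.45, 10.45 and 10.37 in untreated EG110, 10.64, 10.72 and 10.77 in aspirin-treated EG103 and 10.77, 10.84 and 10.84 in untreated EG103. Aspirin and untreated arrays overlapped or touched in both strains (0.05 in EG110, adjusted *P* = 0.487). *PRI2* (YKL045W), the large subunit, read 11.69, 11.76 and 11.51 in aspirin-treated EG110, 11.45, 11.35 and 11.41 in untreated EG110, 10.64, 10.71 and 11.24 in aspirin-treated EG103 and 11.23, 11.13 and 11.56 in untreated EG103. EG103 was widely spread, with 2 of its aspirin arrays far below the rest. Its effects of 0.25 in EG110 and -0.44 in EG103 each missed the adjusted *P* (0.177 and 0.0529) while their difference of 0.69 passed (adjusted *P* = 0.0243). Without replicate 3 of aspirin-treated EG103 the EG103 effect was -0.63 and passed both thresholds, while it was -0.31 without replicate 3 of untreated EG103 and its adjusted *P* reached 0.378 without replicate 1. The difference no longer passed in 7 of 20 alternatives, at 0.56 to 0.67 and an adjusted *P* up to 0.187: without replicate 1 or 2 of each group, without either of these in the aspirin-treated arrays of EG110 or EG103, or without replicate 3 of untreated EG103.

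The 2 further polymerase genes that rose, given so that each risen gene has its values, were *POL12*, the second subunit of polymerase α, and *POL3*, the catalytic subunit of the lagging strand polymerase δ. *POL12* rose by 0.65 in EG110 (adjusted *P* = 6.57e-06), from 10.22 to 10.24 untreated to 10.85 to 10.90 with aspirin, against 0.02 in EG103. *POL3* rose by 0.60 (adjusted *P* = 5.66e-05), from 10.26 to 10.48 untreated to 10.96 to 11.02, against -0.03 in EG103, and lay next to the fold threshold: it measured 0.58 with arrays centred or quantile normalised, 0.52 without replicate 2 of both groups and 0.53 without replicate 2 of untreated EG110 alone. Their differences between the strains, 0.62 and 0.63, passed both thresholds, and that of *POL12* was 0.52 without replicate 3 of each group and 0.56 without replicate 3 of untreated EG103. That of *POL3* was 0.54 without replicate 2 of each group, 0.56 without replicate 2 of untreated EG110, 0.57 without replicate 3 of aspirin-treated EG103 and 0.57 without replicate 2 of untreated EG103. *POL2*, the catalytic subunit of polymerase ε, lay just under the threshold at 0.54 (adjusted *P* = 0.00114) and passed it without replicate 3 of untreated EG110 (0.64) or of aspirin-treated EG110 (0.59), while it was 0.37 without replicate 2 of both groups and its adjusted *P* reached 0.0523 by the methods' t-test.

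**Figure D2:**
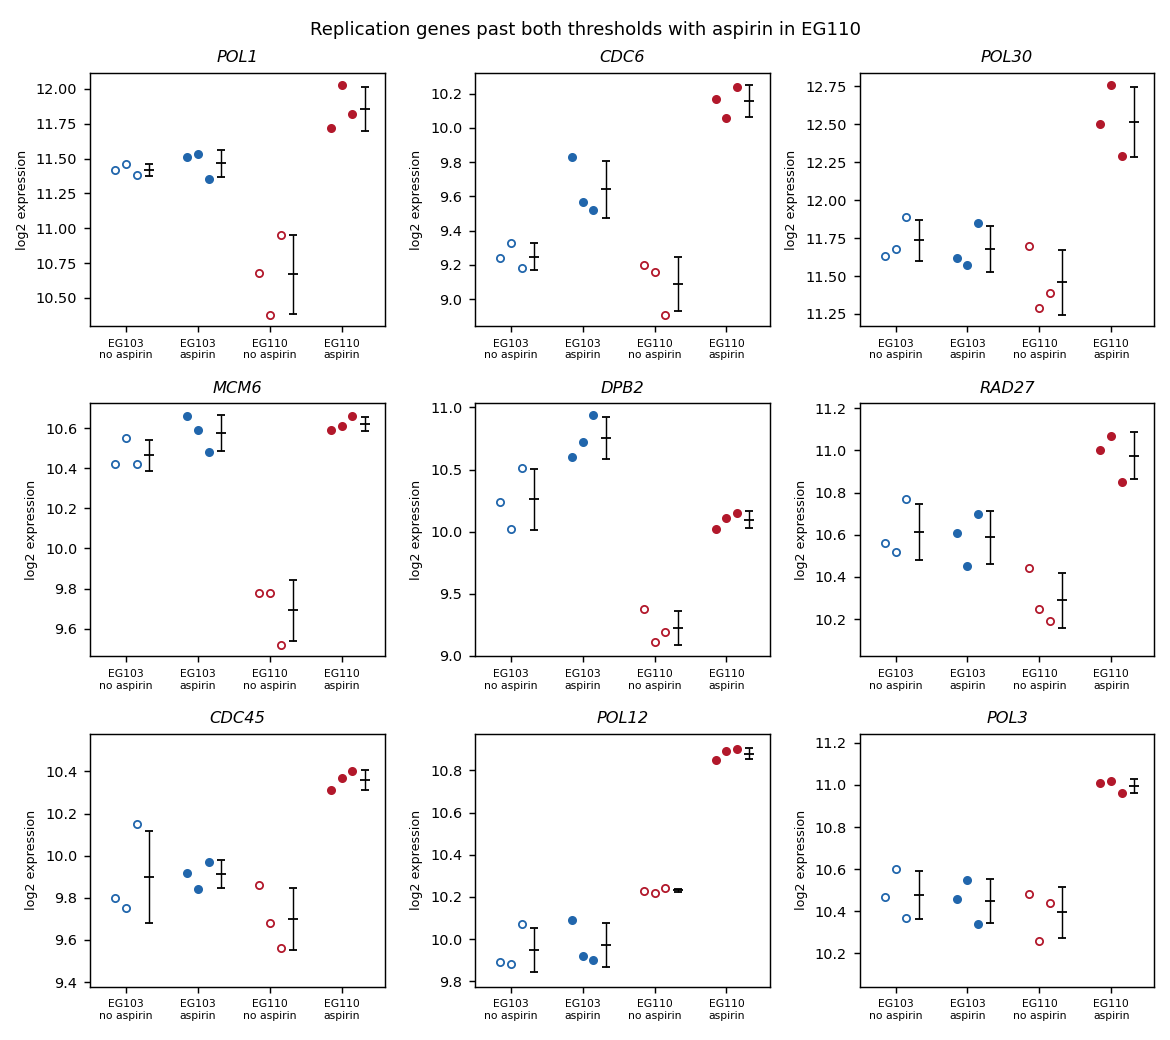
Deposited log2 expression (y axis) of the 9 replication genes that rose with aspirin in EG110, *RNR1* aside, on the 12 arrays. Open points are untreated and filled points aspirin-treated arrays, EG103 in blue and EG110 in red, and bars give the mean and SD of 3 arrays. In *POL1*, *MCM6*, *DPB2* and, narrowly, *RAD27* the untreated EG110 arrays lie under all EG103 arrays, whereas in *POL12* they lie above them.

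The clamp gene rose while its loader stayed below the fold threshold. *POL30* (YBR088C), which encodes PCNA, the ring that tethers polymerases to DNA, read 12.50, 12.76 and 12.29 in aspirin-treated EG110, 11.70, 11.29 and 11.39 in untreated EG110, 11.62, 11.57 and 11.85 in aspirin-treated EG103 and 11.63, 11.68 and 11.89 in untreated EG103. The aspirin-treated EG110 arrays lay above all 9 others, which overlapped among themselves. It rose 2.08-fold in EG110 (log2 1.06, SE 0.13, adjusted *P* = 4.56e-05) against -0.06 in EG103 (adjusted *P* = 0.808), a difference of 1.11 (adjusted *P* = 8.55e-04). The 5 clamp loader genes *RFC1* to *RFC5* lay between 0.01 and 0.35 in EG110, with *RFC3*, *RFC4* and *RFC5* past the adjusted *P*. *RFC5*, which converges with *POL30* as its neighbour on chromosome II, changed by 0.35.

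*RFC2* (YJR068W), the clamp loader gene with the smallest effect, read 11.45, 11.42 and 11.32 in aspirin-treated EG110, 11.36, 11.37 and 11.43 in untreated EG110, 11.91, 11.96 and 12.13 in aspirin-treated EG103 and 11.96, 11.94 and 12.03 in untreated EG103. The aspirin and untreated arrays overlapped in each strain, and the strains did not overlap.

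Among the RPA and lagging strand genes 5 of 6 were higher in EG110 by adjusted *P* (against 27.2% of all probe sets), and *RAD27* rose. *RAD27* (YKL113C), the flap nuclease that trims Okazaki fragments, read 11.00, 11.07 and 10.85 in aspirin-treated EG110, 10.44, 10.25 and 10.19 in untreated EG110, 10.61, 10.45 and 10.70 in aspirin-treated EG103 and 10.56, 10.52 and 10.77 in untreated EG103. Aspirin-treated EG110 lay above all others and untreated EG110 below them. The log2 fold change was 0.69 in EG110 (SE 0.093, adjusted *P* = 8.27e-05) and -0.03 in EG103 (adjusted *P* = 0.883), a difference of 0.71 (adjusted *P* = 0.00162).

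The RPA subunits *RFA1* and *RFA2* were higher by 0.47 and 0.49 (adjusted *P* = 2.00e-04 and 2.17e-04), and the ligase gene *CDC9* and the adaptor gene *CTF4* by 0.28 each. *RFA3* (YJL173C), the small RPA subunit, read 11.95, 12.07 and 11.85 in aspirin-treated EG110, 11.89, 11.66 and 11.88 in untreated EG110, 12.04, 12.09 and 12.16 in aspirin-treated EG103 and 11.88, 11.98 and 12.09 in untreated EG103. Aspirin and untreated arrays overlapped in each strain, and the change of 0.15 in EG110 did not pass (adjusted *P* = 0.144).

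The ribonucleotide reductase genes moved in opposite directions in EG110. *RNR1* rose, while *RNR2* and *RNR4* fell and *RNR3* was lower by adjusted *P* alone. *RNR1* (YER070W), the large catalytic subunit used in normal S phase, read 12.28, 12.68 and 12.08 in aspirin-treated EG110, 10.95, 10.21 and 10.83 in untreated EG110, 10.88, 10.72 and 10.94 in aspirin-treated EG103 and 10.74, 10.63 and 11.02 in untreated EG103. The aspirin-treated EG110 arrays exceeded all 9 others by more than any of those differed from each other. It rose 3.20-fold in EG110 (log2 1.68, SE 0.19, adjusted *P* = 2.09e-05), the largest change of the 48 genes, against 0.05 in EG103 (adjusted *P* = 0.893), a difference of 1.63 (adjusted *P* = 7.40e-04). Replicate 2 of untreated EG110 had the lowest value, and without it the increase was 1.45.

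*RNR2* (YJL026W), the small subunit that carries the radical cofactor, read 13.40, 13.32 and 13.25 in aspirin-treated EG110, from 13.97 to 14.02 in untreated EG110, 13.63, 13.64 and 13.80 in aspirin-treated EG103 and 13.75, 13.78 and 13.83 in untreated EG103. Untreated EG110 was the highest group and aspirin-treated EG110 the lowest, with EG103 between them. It fell 1.59-fold in EG110 (log2 -0.67, SE 0.058, adjusted *P* = 2.69e-06) and changed by -0.10 in EG103 (adjusted *P* = 0.231), a difference of -0.57 (adjusted *P* = 3.13e-04) that lay under the fold threshold. That difference passed it in 7 of its alternatives, at -0.59 after centring and -0.61 without replicate 1.

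*RNR4* (YGR180C), the partner small subunit, read 13.90, 13.88 and 13.74 in aspirin-treated EG110, 14.48, 14.46 and 14.34 in untreated EG110, 14.28, 14.30 and 14.41 in aspirin-treated EG103 and 14.44, 14.34 and 14.39 in untreated EG103. The aspirin-treated EG110 arrays lay below all others, which overlapped. It fell in EG110 (log2 -0.59, SE 0.061, adjusted *P* = 1.15e-05), at the edge of the fold threshold, and measured -0.58 without replicate 3 of both groups and -0.54, -0.56 and -0.57 without replicate 3 of aspirin-treated EG110, without replicate 1 of untreated EG110 and without replicate 2 of untreated EG110. In EG103 it changed by -0.06 (adjusted *P* = 0.516).

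*RNR3* (YIL066C), the alternative large subunit best known for its induction by DNA damage, read 10.27, 10.18 and 10.12 in aspirin-treated EG110, 10.56, 10.23 and 10.47 in untreated EG110, 10.66, 10.63 and 10.84 in aspirin-treated EG103 and 10.68, 10.67 and 10.76 in untreated EG103. The EG110 groups overlapped. As deposited it was lower in EG110 than in EG103 on every array, but the difference without aspirin (-0.28, adjusted *P* = 0.00931) did not pass the adjusted *P* after quantile normalisation (-0.09, 0.33) or centring (-0.06, 0.529). The change in EG110 was -0.23 (adjusted *P* = 0.0362) and in EG103 0.01 (adjusted *P* = 0.962).

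The change of *RNR1* relative to its small subunit partners was taken within each array. In EG110 *RNR1* minus *RNR2* moved from -3.07, -3.78 and -3.14 untreated to -1.12, -0.64 and -1.17 with aspirin, a shift of 2.35 on the log2 scale, with no overlap. The shift was 2.27 for *RNR1* minus *RNR4* in EG110, and in EG103 it was 0.15 and 0.11. A two-sided exact permutation test gave *P* = 0.1 for either pair in EG110, the smallest value that 3 against 3 arrays allow, and 0.3 and 0.4 in EG103. In EG110 *RNR1* lay higher, and *RNR2* and *RNR4* lower, on every aspirin array than on every untreated one. The separation and the *P* in EG110 follow from that and add nothing to the calls of the single genes. The differences within arrays compare changes, and the levels of separate probe sets were not compared.

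**Figure D3:**
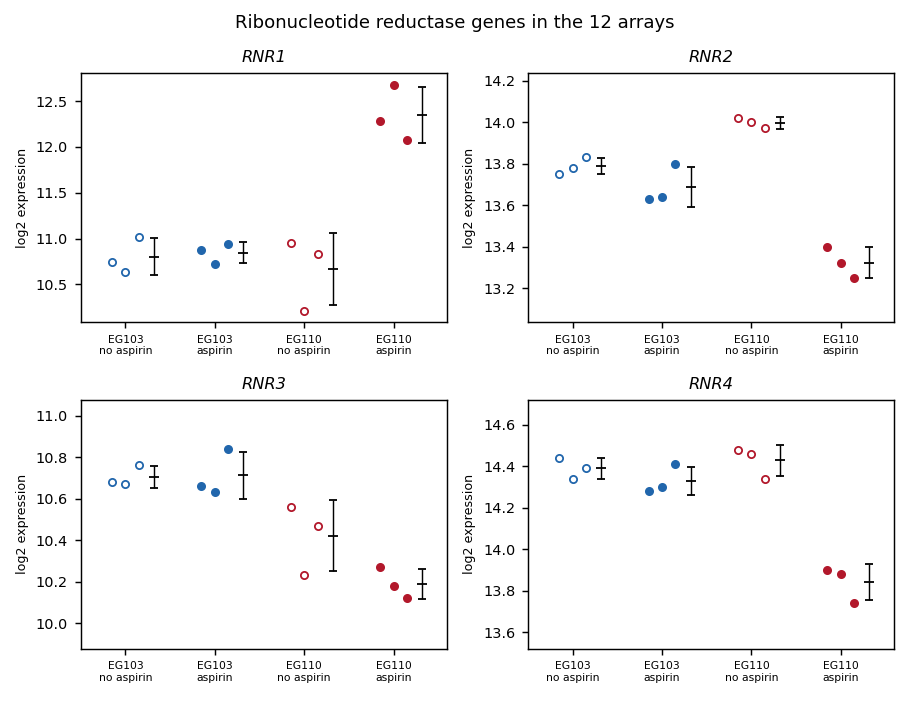
Deposited log2 expression (y axis) of *RNR1* to *RNR4* on the 12 arrays. Open points are untreated and filled points aspirin-treated arrays, EG103 in blue and EG110 in red, with the mean and SD of 3 arrays. Aspirin-treated EG110 lies above all other arrays for *RNR1*, at 12.08 to 12.68, and below all others for *RNR2* and *RNR4*.

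Set against EG103, the genes that rose in EG110 did so from different starting points. Of the 10, 8 lay higher on all 3 aspirin-treated EG110 arrays than on all 6 EG103 arrays, with *MCM6* and *DPB2* as the exceptions, and 9 did so after centring of the arrays at their medians, with *DPB2* as the exception. Untreated EG110 lay below all 6 EG103 arrays for *MCM6*, *POL1*, *DPB2* and *RAD27*, and after centring for the first 3. The direction of the strain difference in untreated cells depended on the scale: the mean was lower in EG110 for 9 of the 10 genes as deposited and for 5 after centring. The 10 genes were picked for aspirin arrays that were high against the untreated ones in EG110, which favours such positions. No share over all probe sets was counted, so these counts describe the 10 genes only.

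The spread between replicates also differed. The median SD of the 48 genes was 0.13 in untreated EG110 and 0.068 in aspirin-treated EG110, against 0.087 and 0.055 over all probe sets, and 0.077 and 0.084 in untreated and aspirin-treated EG103. The highest SD in untreated EG110 was 0.41, for *ORC3*. Of the 10 genes that rose, 6 were lowest in replicate 2 of untreated EG110 and 7 were highest in its replicate 1. In untreated EG103, 5 of the same genes were lowest in replicate 2 and 6 highest in replicate 3. No share over all probe sets was counted. The 12 calls in EG110 became 11 without replicate 2 of untreated EG110, with *POL3* and *RNR4* under the fold threshold and *DBF4* past it.

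Without aspirin, the 48 genes as a whole followed the shift of all probe sets between the strains. Relative to EG103, 9 genes were lower and 1 higher in EG110 at both thresholds (18.8% and 2.08%, against 17.4% and 7.45% of all probe sets), together 10 members or 20.8% against 24.8%. By adjusted *P* alone 29 differed (60.4%, against 72.6%) and the arrays of the strains did not overlap in 28 (58.3%, against 73.1%). The median difference was -0.19 for the members and -0.20 for all probe sets. The share of members that was lower was close to the background. Of all 1419 calls as deposited 426 were higher in EG110, and the share of higher calls went up to 52.9% after quantile normalisation and to 61.9% after centring. For the members the split of 1 higher and 9 lower became 1 and 4 after quantile normalisation, where 10.8% of all probe sets were higher and 9.66% lower, and 2 and 3 after centring, where 13.2% were higher and 8.14% lower. Whether the strains were normalised together is not given in the sources used here.

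The MCM genes lay below that shift. Their median difference was -0.66 as deposited, -0.43 after quantile normalisation and -0.44 after centring, where all probe sets gave -0.20, -0.02 and 0.03. *MCM5* was lower in EG110 under all 3 scales (-0.93, adjusted *P* = 1.66e-06, as deposited and -0.71 centred). *MCM6* (-0.77 and -0.55 centred) and *MCM4* (-0.75 and -0.53 centred) were under the fold threshold after centring, and *MCM4* after quantile normalisation too (-0.52). *MCM2* went the other way (0.27, adjusted *P* = 4.34e-04).

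Of the other called members, *DBF4* (-1.07, adjusted *P* = 2.18e-06), *DPB2* (-1.03, adjusted *P* = 8.68e-06) and *ORC5* (0.98, adjusted *P* = 4.53e-07) passed both thresholds under all 3 scales, at -0.85, -0.81 and 1.21 after centring. *POL1* (-0.75), *PSF3* (-0.72), *PSF2* (-0.68) and *RFC2* (-0.59) did not pass the fold threshold after centring, at -0.53, -0.50, -0.45 and -0.37. *RFC2* also fell under it as deposited without replicate 1 or 2 of untreated EG110 (-0.58 each) or replicate 3 of untreated EG103 (-0.56), and *PSF2* without replicate 3 (-0.58). *SLD3* passed only after centring (0.60, against 0.38 as deposited), *MCM7* (-0.57) without replicate 1 (-0.61) or replicate 1 of untreated EG110 alone (-0.60), and *ORC3* (-0.42) without replicate 2 (-0.63). *ORC3* was -0.13 without replicate 3 and its adjusted *P* reached 0.274 after centring. *ORC5* lies next to *POL2* in the same orientation on chromosome XIV, and *POL2* differed by 0.24 (adjusted *P* = 0.0621).

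**Figure D4:**
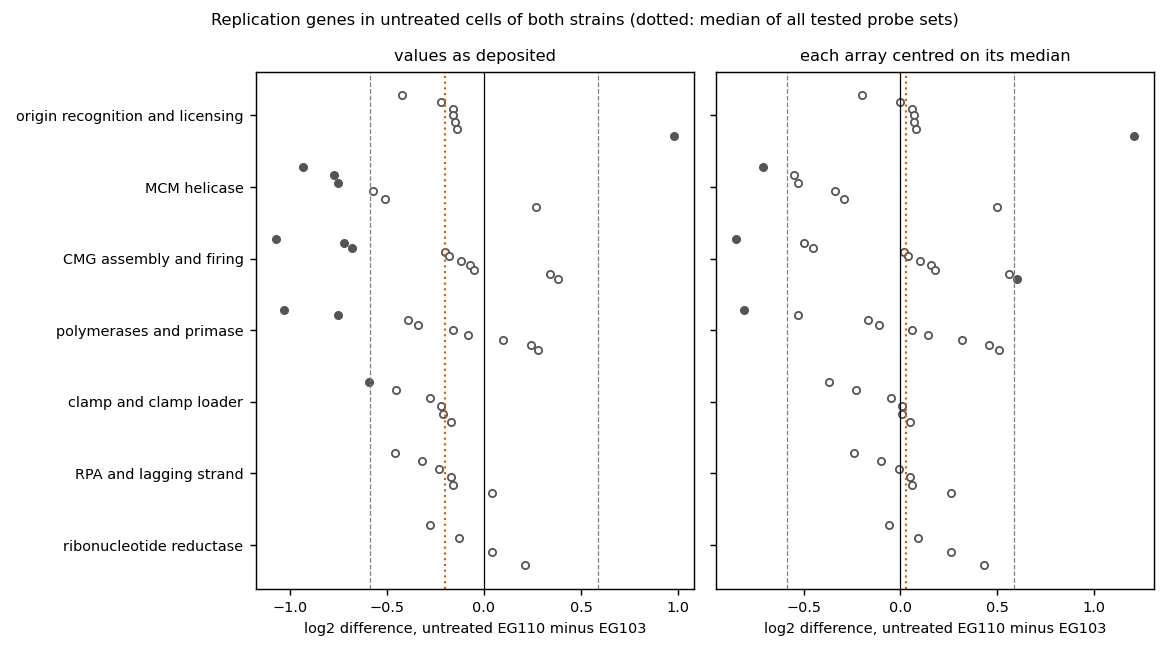
Log2 difference between untreated EG110 and untreated EG103 (x axis) of the 48 genes by complex, as deposited (left) and with each array centred on its median (right), 3 arrays per group. Filled points passed both thresholds, dashed lines mark 1.5-fold and the dotted line is the median of all 5716 probe sets. The MCM genes other than *MCM2* lie left of the dotted line in both panels.

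Genes that work beside these complexes were counted in 6 further lists of 53 genes. In EG103 none of the 53 passed both thresholds, against 2.61% of all probe sets. For the list counts in EG110, 5.90% of all probe sets were called higher there and 6.09% lower. Among 16 other fork genes 2 rose and 1 fell in EG110 (median 0.39): *TOF1*, which stabilises stalled forks, rose by 1.00 (adjusted *P* = 2.9e-06), *DNA2*, a nuclease of Okazaki fragment processing, by 0.60, and *SLD7*, a partner of Sld3, fell by 0.72. *CTF18*, of the alternative clamp loader for cohesion, was called only in the difference between the strains (0.63, adjusted *P* = 0.0113), and not in 6 of 18 alternatives (0.40 without replicate 2). *DNA2* lay under the fold threshold in 6 of 12 alternatives, at 0.58 after centring and 0.57 without replicate 2 of untreated EG110. Of 7 nucleotide precursor genes none passed in EG110. For *CDC21*, which encodes thymidylate synthase, the difference between the strains was 0.74 (adjusted *P* = 0.041, and 0.0553 with the replicate number as a block), and it was not called in 12 of 18 alternatives.

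Regulators of ribonucleotide reductase and the S phase checkpoint changed in both directions in EG110, with 1 of 10 higher and 2 lower. *WTM1*, which anchors the small subunits Rnr2 and Rnr4 in the nucleus, read 12.97, 12.89 and 12.89 in aspirin-treated EG110, 14.10, 14.17 and 14.10 in untreated EG110 and from 13.89 to 14.02 on all EG103 arrays. It fell by 1.21 in EG110 (adjusted *P* = 1.1e-08) and changed by 0.03 in EG103, with a difference of -1.24 (adjusted *P* = 4.7e-07). *RAD53*, the checkpoint kinase, rose by 0.88 (adjusted *P* = 3.5e-06), from 8.81 to 9.06 untreated to 9.69 to 9.84 with aspirin. *HUG1*, a small inhibitor of the reductase that DNA damage induces, fell by 0.79 (adjusted *P* = 0.0013), and its difference of -1.01 passed both thresholds except without replicate 1 (adjusted *P* = 0.0712). *SML1* and *DIF1*, inhibitors of the reductase, changed by 0.04 and -0.12.

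The G1/S regulators and cyclins of the same cultures were also read. *SWI4*, the DNA-binding subunit of the G1/S factor SBF, was the 1 of 6 G1/S transcription factors that rose in EG110 (0.80, adjusted *P* = 4.6e-05), and changed by 0.46 in EG103 (adjusted *P* = 0.0093), with a difference that did not pass (0.34, adjusted *P* = 0.086). Of 6 G1 and S cyclin genes 3 rose in EG110, *CLB6* by 0.98, *CLN2* by 0.71 and *PCL1* by 0.67, with a median over the list of 0.53 in EG110 and -0.23 in EG103. Without replicate 2 of untreated EG110, *CLN2* and *PCL1* measured 0.45 (adjusted *P* = 0.0451) and 0.37 (adjusted *P* = 0.063), and *PCL1* had an adjusted *P* of 0.0554 with the replicate number as a block. Over their alternatives the adjusted *P* reached 0.177 for *CLN2* and 0.205 for *PCL1*, while *CLB6* passed in all 12 that were run, at 0.62 without replicate 2. The difference between the strains was called for these 3 and for *CLN1* (0.72, adjusted *P* = 0.0154), which was not called in 3 of 18 alternatives (0.45 without replicate 2).

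Mitotic genes did not rise with the replication genes. Of 8, 1 fell in EG110 and none rose (median -0.20, and 0.13 in EG103). *CLB1*, a mitotic cyclin gene, read 8.23, 8.42 and 8.15 in aspirin-treated EG110, 9.59, 9.66 and 9.36 in untreated EG110 and from 10.44 to 10.89 on all EG103 arrays. It fell by 1.27 (adjusted *P* = 1.4e-06). *CLB2*, its paralogue, changed by -0.54 in EG110, and its difference between the strains of -0.60 (adjusted *P* = 0.0096) missed a threshold in 8 alternatives, at -0.47 after quantile normalisation and -0.44 without replicate 1.

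**Figure D5:**
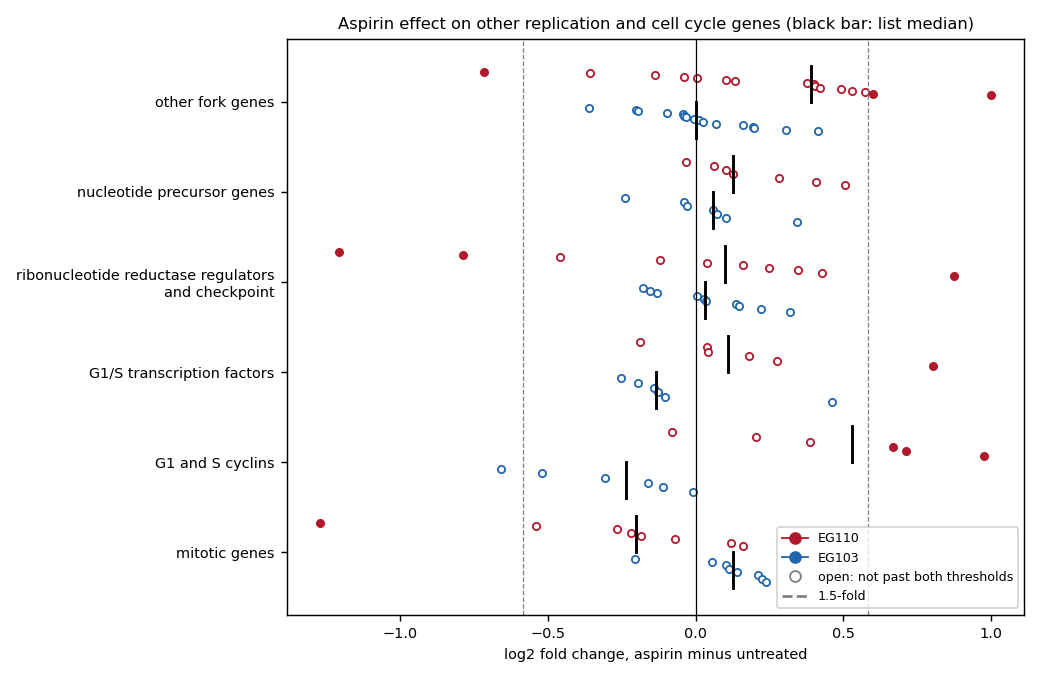
Log2 fold change with aspirin (x axis) of 53 genes in 6 lists beside the replication complexes, in EG110 (red) and EG103 (blue), each gene a point. Filled points passed both thresholds, dashed lines mark 1.5-fold and black bars are the list medians. Filled points occur in EG110 and not in EG103, and the cyclin medians are 0.53 and -0.23.

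Part of the stationary phase markers moved with aspirin in EG110 in the other direction. Of 7 genes 4 fell there (*SPG4* -2.35, *SNZ1* -2.19, *SNO1* -2.16 and *SPG1* -1.23 on the log2 scale) and 1 in EG103 (*SPG1* -1.22). The other 3, *HSP26*, *HSP12* and *GRE1*, did not pass the adjusted *P* in EG110. Of all probe sets 6.09% were called lower in EG110 and 0.857% in EG103. Without aspirin *SPG1* and *GRE1* were higher and *SNO1* lower in EG110 than in EG103 (1.94, 3.44 and -1.69), under all 3 scales. The median over the 7 ranged from 12.28 to 12.49 on the aspirin-treated EG110 arrays, from 13.88 to 14.05 on the untreated ones and from 13.77 to 14.19 on the EG103 arrays. No marker of the 7 read near the level of the probe sets with no yeast gene. The part of growth state in the changes of the replication genes was not tested.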

How the data were processed

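Expression was measured on 12 arrays from separate cultures. The deposited values are log2 expression per probe set, made by the authors by robust multi-array average in AltAnalyze (background correction, normalisation between arrays, summary of probes); whether both strains were normalised together is not given in the sources used here. Fold changes and P-values of the authors' own comparisons stand in the same table and were not used. Of 10928 probe sets, 213 controls and 4999 without an *S. cerevisiae* gene (paired by locus tag) were left out, and 5716 were tested. The array is the replicate, and 3 arrays per group limit the precision. The arrays carry no count or depth.

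One model with 4 groups was fitted with limma 3.58.1 in R 4.3.3 (8 residual degrees of freedom), with contrasts for aspirin in each strain, for strain without aspirin and for the difference between the aspirin effects. P-values were adjusted over the 5716 probe sets (Benjamini-Hochberg) within each contrast, and changes of 1.5-fold or more with adjusted P under 0.05 were called. The model was tested on simulated data with known changes before use. Figures were drawn with matplotlib.

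The members and lists were chosen with earlier results of these data known. Values per array were given for the members called in any contrast (the 14 largest), for *RNR1* to *RNR4* and for the largest and smallest aspirin effect of each complex in EG110. Members outside this rule that are named with a value were chosen after their values were seen. From the other lists only genes called in at least 1 contrast or scaling were named.

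Same-numbered arrays in EG110 deviated together (r = 0.229, 0.142 and 0.343 over all probe sets). However, aspirin replicate 2 correlated more with untreated replicate 1 (r = 0.221) than with untreated replicate 2. The labels do not say that equal numbers mark paired cultures. The model therefore had no pairing term, and the replicate number entered as a block only in an alternative. In EG103 the values were 0.0166, 0.485 and 0.450. Alternatives were other thresholds, quantile normalisation, centring, a filter on low probe sets, other variance models, the replicate number as a block, the methods' t-test and leaving out replicates. Promoter motifs were not searched.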

Additional observations from a re-analysis of the deposited data

Results flagged for a closer look

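For 11 of the 48 genes the aspirin effect differed between EG110 and EG103 by limma's test of the difference itself, at both thresholds. On the log2 scale the effect in EG110 minus that in EG103 was 1.63 for *RNR1*, 1.14 for *POL1*, 1.11 for *POL30*, 0.81 for *MCM6*, 0.71 for *RAD27*, 0.69 for *PRI2*, 0.68 for *CDC6*, 0.65 for *CDC45*, 0.65 for *CDC7*, 0.63 for *POL3* and 0.62 for *POL12*. Of these, *CDC7* and *PRI2* were called in neither strain alone, and the other 9 rose in EG110. In *CDC6* alone the effect in EG103 also passed the adjusted *P*, and *DPB2*, the tenth gene that rose in EG110, did not differ by the test (0.38, adjusted *P* = 0.108). Groups of 3 arrays were too small to test single arrays as outliers.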

How the results depend on the processing

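In EG110 the 12 called members became 34 with no fold threshold, 4 at a fold of at least 2, 7 without the lowest 25% of probe sets (where 32 of the 48 members were tested) and 11 to 13 when replicates were left out. In EG103 the count of 0 became 6 with no fold threshold and 0 to 1 with replicates left out. For untreated EG110 against EG103 the 10 became 29, 2 and 5 under these thresholds and that filter, 5 after quantile normalisation, 5 after centring and 9 to 11 with replicates left out. The 11 differences between aspirin effects became 29, 3, 6 and 9 to 12. Where no fold threshold was set, 70.8%, 12.5%, 60.4% and 60.4% of members passed in the 4 comparisons, in the order above. Of all probe sets 52.3%, 20.6%, 72.6% and 33.1% did. The other counts here are given without a share of all probe sets, so they cannot be read against the background. With the replicate block the counts stayed at 12, 0, 10 and 11, with no member's call changed. The median strain difference of the members, -0.19, was -0.03 after quantile normalisation, 0.03 after centring and -0.26 without replicate 1. No result changed direction past a threshold. Of 1219 recomputed values 1086 kept their side of the threshold or stayed within their margin. Each member has 1 probe set, so no other probe set could be tried. The lowest mean of a member was 8.53, where probe sets with no yeast gene had array medians up to 4.19. However, the a cell markers, read here in *MATα* strains, had array medians from 8.16 to 9.10. The comparison with probe sets with no yeast gene therefore does not settle the background of the lowest members. With 3 cultures per group small changes could be missed.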

Other observations

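Of the 53 genes in the lists beside the replication complexes, 13 were lower and 1 higher in untreated EG110 than in untreated EG103 at both thresholds as deposited, 11 and 2 after quantile normalisation and 9 and 2 after centring, in scalings chosen after seeing the data. Of all probe sets 17.4% were lower and 7.45% higher as deposited, 9.66% and 10.8% after quantile normalisation, and 8.14% and 13.2% after centring. Lower under all 3 scales were the G1/S genes *SWI6* (-1.26 as deposited), *NRM1* (-1.10) and *CLB5* (-0.82), the mitotic cyclin genes *CLB1* (-1.25) and *CLB2* (-1.03), *DIF1* (-1.16) and *HUG1* (-0.81), which act on ribonucleotide reductase, and the fork genes *TOP1* (-0.87) and *DPB4* (-0.85). *SML1* (-0.77), *RFX1* (-0.69), *POL31* (-0.66) and *WHI5* (-0.63) were not called after centring. *DCD1*, the deoxycytidylate deaminase, was higher under all 3 (0.69 as deposited), and *MEC1* was called higher after quantile normalisation (0.59) and centring (0.64).

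The 6 meiosis genes went the other way from most of these. All were higher in untreated EG110 by adjusted *P*, against 20.8% of all probe sets, whose median difference was -0.20. *REC8* (1.05) and *DMC1* (0.70) passed both thresholds under all 3 scales. Of all probe sets 7.45% were called higher as deposited, 10.8% after quantile normalisation and 13.2% after centring. With aspirin *DMC1* fell in EG110 (-0.90) and none of the 6 was called in EG103.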
